A study of Homo sapiens with 40 samples.

Results

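The genes described here are 45 genes of mitosis and of the kinetochore, the protein structure that joins a chromosome to the microtubules of the spindle. They were taken by name from a count table with 44584 gene names, and all 45 were counted well enough to be tested in both cell lines. RNA was sequenced from BT474, a human breast cancer cell line that overexpresses the receptor HER2 and is sensitive to the HER2 antibody trastuzumab, and from BT474R, a resistant derivative (BT474 clone 5) obtained from BT474 cells grown in trastuzumab. BT474R is a single clone, so a difference between the lines is a difference from that clone. Cells of every group were first serum starved for 14 to 16 h in medium with 0.1% fetal bovine serum. T0 cells were collected at the end of starvation, and all others were placed in fresh starvation medium with 50 ng/mL epidermal growth factor (EGF), 10 ng/mL heregulin (HRG) or water as vehicle for 1 h, 12 h or 24 h. Each line therefore had 10 groups, and each of the 20 groups had 2 libraries, 40 in all. The study describes the treatments as duplicates and nothing says that the duplicates came from separate cultures, so the p-values measure the spread between these libraries, which may be technical.

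As background, EGF binds the EGF receptor and HRG binds HER3 and HER4, and each of these receptors can pair with HER2. Mitotic genes are periodic. Their mRNAs are low after division, rise in the G2 phase and peak around mitosis, when cyclin B and CDK1 start division, the kinetochore and the spindle checkpoint hold chromosomes until they are attached, and the anaphase-promoting complex, switched on by CDC20, lets the chromosomes separate. In resting cells many of these genes are held down by the DREAM complex, and in cycling cells B-MYB (MYBL2) and FOXM1 act on the same promoters through the CHR element (TTTGAA or TTCGAA) and neighbouring CCAAT boxes bound by NF-Y. In bulk RNA, fewer cells near mitosis and less mRNA per cell cannot be told apart.

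Promoter sequence was looked up as a description of the members. The CHR and CCAAT elements named above are known in promoters of mitotic genes. The shares below therefore describe the chosen list and are no evidence on the expression results. The 250 bases before the annotated start were read from the RefSeq promoter table (GRCh38.p14), which matched 40 of the 45 genes. UBE2C, AURKA, TTK, BIRC5 and TPX2 had no entry. TTTGAA was present on either strand in 21 of the 40 promoters (52.5%), against 13.6% of all 27305 promoters of the same length. TTCGAA was in none of the 40 and in 1.2% of all promoters. CCAAT was in 30 of the 40 (75.0%) against 33.0% of all, and CCAAT together with TTTGAA or TTCGAA was in 19 of the 40 (47.5%) against 5.24% of all. These are matches of letters and not measured binding. The 4 promoters below are examples and do not represent the 40, as 3 have both motifs and KIF20A has CCAAT alone. Capitals mark TTTGAA and CCAAT, or TTCAAA and ATTGG where the motif is on the other strand. Each reads 5′ to 3′ on the strand of the gene. PLK1 lies at chr16:23678639-23678888 (plus strand), CCNB2 at chr15:59104896-59105145 (plus strand), CDC20 at chr1:43358731-43358980 (plus strand) and KIF20A at chr5:138178862-138179111 (plus strand).
PLK1: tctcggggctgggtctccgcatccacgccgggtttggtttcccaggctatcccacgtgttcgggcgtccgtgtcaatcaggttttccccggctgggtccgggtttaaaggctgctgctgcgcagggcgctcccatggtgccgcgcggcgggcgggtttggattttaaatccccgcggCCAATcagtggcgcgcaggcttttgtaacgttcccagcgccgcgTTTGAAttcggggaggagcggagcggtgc
CCNB2: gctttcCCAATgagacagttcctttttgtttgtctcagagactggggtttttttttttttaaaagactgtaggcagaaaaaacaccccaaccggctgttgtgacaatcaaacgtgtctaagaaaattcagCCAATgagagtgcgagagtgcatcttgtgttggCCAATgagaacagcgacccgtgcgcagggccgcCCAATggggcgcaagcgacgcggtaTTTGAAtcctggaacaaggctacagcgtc
CDC20: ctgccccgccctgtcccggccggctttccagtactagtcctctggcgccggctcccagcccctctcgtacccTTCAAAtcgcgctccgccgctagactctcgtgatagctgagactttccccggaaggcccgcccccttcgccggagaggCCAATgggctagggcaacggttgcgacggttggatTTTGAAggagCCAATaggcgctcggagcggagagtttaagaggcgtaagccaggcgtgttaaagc
KIF20A: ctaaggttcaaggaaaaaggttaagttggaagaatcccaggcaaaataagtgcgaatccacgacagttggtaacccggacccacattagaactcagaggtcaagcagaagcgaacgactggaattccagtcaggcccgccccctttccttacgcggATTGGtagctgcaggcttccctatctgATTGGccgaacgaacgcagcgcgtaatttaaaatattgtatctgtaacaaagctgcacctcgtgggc
In PLK1 and CCNB2 the TTTGAA starts 29 bases before the annotated start of the gene, and the nearest CCAAT starts 73 and 54 bases before it. In CDC20 a TTTGAA starts 65 and a CCAAT 55 bases before the start. In KIF20A the CCAAT boxes are on the other strand, 94 and 67 bases before the start.

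Library totals ran from 19200632 to 29098915 counts in BT474 and from 16794594 to 33387936 counts in BT474R, so a count of 3 corresponds to at most 0.156 CPM (read counts scaled to the size of the library) in BT474 and 0.179 CPM in BT474R. Without molecular identifiers, such limits account for counting error alone. All 8 luminal epithelial markers were detected in every library, with ERBB2 (HER2) at 6078 to 10650 CPM and GATA3 varying most, at 10.4 to 547 CPM. Among markers of other cell types CD3E and PTPRC were at 0.0966 CPM or lower, while COL1A1 ran from 74.8 to 288 CPM. The 10 markers of other cell types, mostly COL1A1, summed to 92.5 to 124 CPM in BT474 and 184 to 304 CPM in BT474R. SPC25 and SKA1 each have a second row in the table, which holds 32.1% and 71.6% of the counts of the pair, so values for these genes are uncertain.

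**Figure D1:**
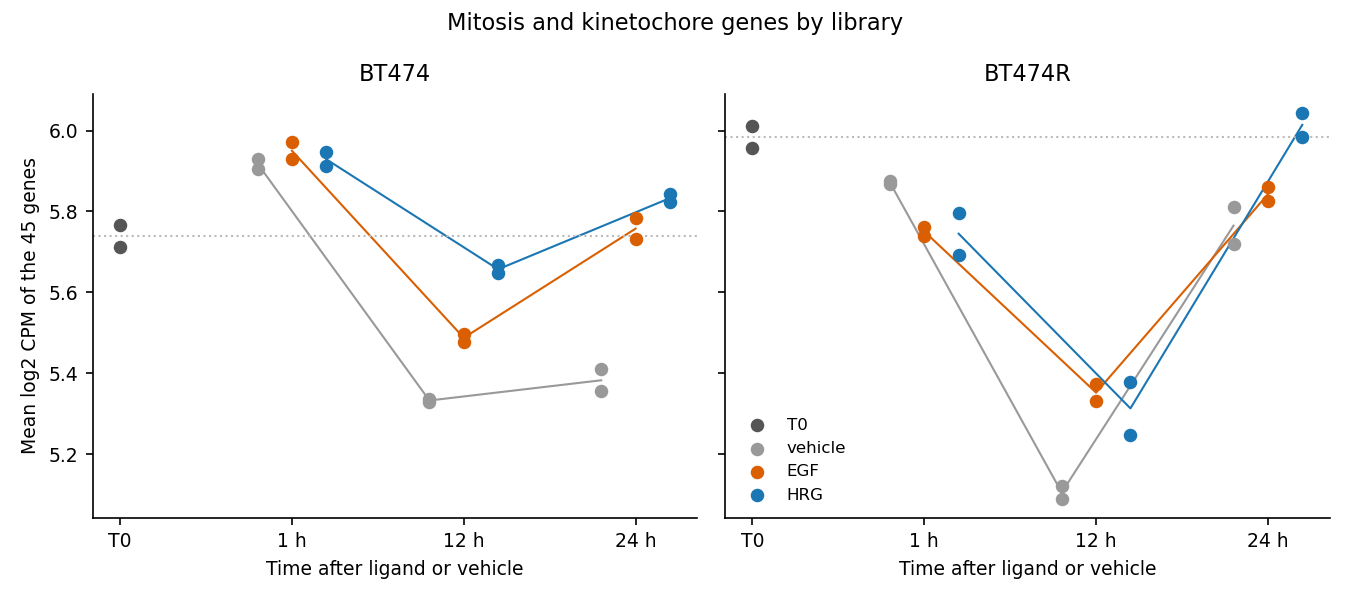
Mean log2 CPM of the 45 genes in every library, by line (panels), time (horizontal axis, not to scale) and treatment (colour). Each point is a library, lines join group means and the dotted line marks the T0 mean. In BT474 the vehicle libraries stay at 5.33 to 5.41 at 12 h and 24 h, and in BT474R they go from 5.09 and 5.12 at 12 h to 5.72 and 5.81 at 24 h.

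At T0, before any fresh medium or ligand, 29 of the 45 members were higher in BT474R than in BT474 and 3 were lower (edgeR quasi-likelihood test, adjusted over all genes), against 25.1% and 21.7% of all genes. The median log2 difference was 0.25. The kinesin KIF14 was 0.84 ± 0.09 (SE) higher in BT474R, CENPA 0.76 ± 0.09 and the chromokinesin KIF4A 0.72 ± 0.05. AURKB, the kinase of the chromosomal passenger complex, was lower by −0.39, KIF18A by −0.32 and KIF20A by −0.17.

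The next comparison asks how the genes changed in vehicle, without any ligand. Most members fell below T0 by 12 h in both lines, and the fall was deeper in BT474R. In BT474, 39 of the 45 members were lower at 12 h and none higher, against 3.26% of all genes lower and 3.15% higher (6.41% in all). The median log2 fold change of the members was −0.42, and the exceptions were CDC25C, SPC25, SKA1, SKA3, KIF18A and ECT2. In BT474R, 43 of 45 were lower at 12 h and none higher, against 0.774% and 0.354% of all genes. The median was −0.92, a level of 0.53 times T0, with SPC25 and SKA1 not called. In BT474R only 188 genes in the whole table were lower at 12 h, and the members were 22.9% of them. Leaving out any one library kept the 12 h counts between 35 and 38 in BT474 and between 40 and 42 in BT474R.

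CCNB1, the cyclin that activates CDK1 for entry into mitosis, was at 102 CPM in each T0 library of BT474 and at 76.05 and 80.1 CPM in vehicle at 12 h. In BT474R it was at 123 and 122 CPM at T0 and at 52.6 and 54.0 CPM in vehicle at 12 h. The vehicle libraries lay below the T0 libraries in both lines, and the BT474R vehicle libraries lay below those of BT474 although their T0 libraries lay above. KIF20A, a kinesin of the central spindle, was at 77.7 and 78.2 CPM at T0 and at 51.0 and 54.7 CPM at 12 h in BT474. In BT474R it was at 64.6 and 71.3 CPM at T0 and at 26.5 and 25.2 CPM at 12 h. AURKA, the kinase of the centrosome and spindle poles, went from 267 and 257 to 182 and 184 CPM in BT474 and from 328 and 335 to 167 and 176 CPM in BT474R. The T0 and 12 h libraries of these genes did not overlap in either line. Both 12 h libraries lay below both T0 libraries in 45 members in BT474 and 44 in BT474R. Of all genes, 22.5% lay below and 24.3% above in BT474, and 16.5% and 26.9% in BT474R.

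The largest 12 h falls in BT474R were in PTTG1 (securin, the inhibitor of separase), which fell by 1.43 ± 0.10 on the log2 scale (SE), KIF20A by 1.42 ± 0.08, the kinase PLK1 by 1.40 ± 0.10, the centrosome kinase NEK2 by 1.39 ± 0.10 and the spindle pole protein ASPM by 1.34 ± 0.06, with adjusted p from 1.61e-11 to 5.73e-09. In BT474 the largest were in CENPA, the centromeric histone H3 variant, which fell by 0.61 ± 0.10, PLK1 by 0.61 ± 0.06, KIF20A by 0.57 ± 0.06, the kinetochore subunit NDC80 by 0.56 ± 0.07 and the kinetochore kinesin CENPE by 0.55 ± 0.06. By role, the median 12 h change in BT474R was −1.39 for the mitotic kinases and −1.24 for the anaphase genes CDC20, UBE2C and PTTG1. It was −0.67 for the spindle checkpoint genes and −0.77 for the kinetochore and centromere genes. The test of the difference between the lines called 32 members as falling further in BT474R at 12 h and none as falling further in BT474, against 0.877% and 0.467% of all genes. The largest differences were −1.10 for PTTG1, −1.02 for ASPM, −0.96 for NEK2, −0.87 for KIF20A and −0.84 for CCNB1.

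**Figure D2:**
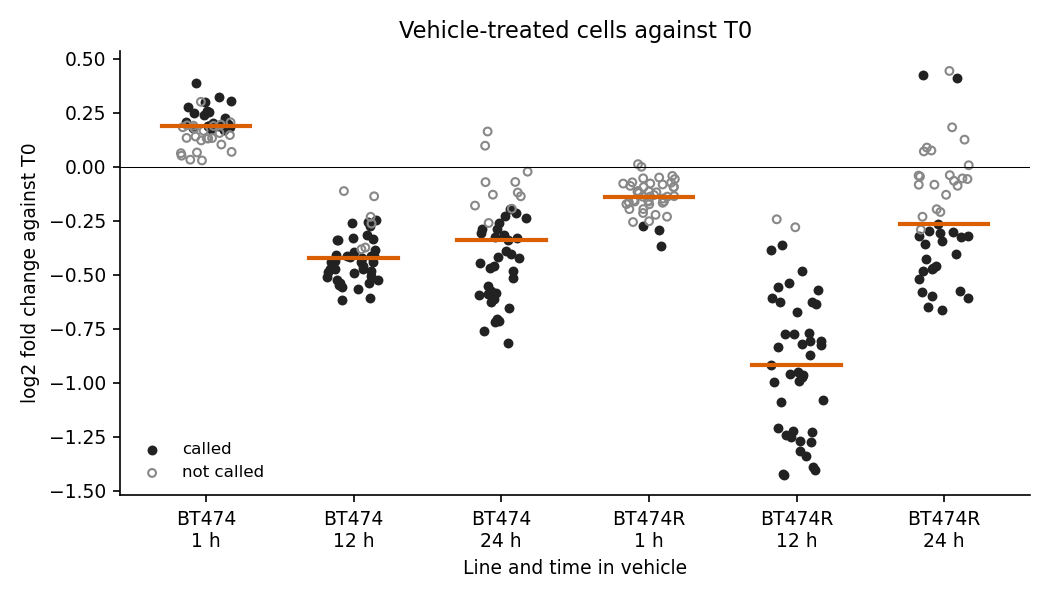
Log2 fold change of each of the 45 genes in vehicle against T0, by line and time. Filled points passed the threshold, open points did not, and bars mark the medians. The median is lowest in BT474R at 12 h, at −0.92.

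The change over the first hour was not tested between the lines. In BT474, 21 members were higher in vehicle at 1 h than at T0 and none lower, against 3.67% and 2.94% of all genes (6.61% in either direction), with CDC25C (the phosphatase that activates CDK1) 0.39, CENPA 0.32, KIF20A 0.30, CENPF 0.30 and the spindle motor KIF11 0.28 higher on the log2 scale. That count was 8 without T0 replicate 2, 11 without vehicle replicate 1 and 8 without vehicle replicate 2. In BT474R, CENPA, CDK1 and ASPM were lower at 1 h, by −0.37, −0.29 and −0.27, against 1.1% of all genes lower and 1.14% higher, and none was called when any of the 4 libraries was left out.

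At 24 h in BT474 vehicle, 34 members were lower than at T0 and none higher, against 6.23% and 5.17% of all genes, with a median of −0.34. In BT474R, 22 were lower and 2 higher (CENPI and SPC25), against 6.83% of all genes in each direction, with a median of −0.26. A comparison added after the data had been seen set 24 h against 12 h within vehicle. In BT474R, 44 of 45 members rose between these times, against 6.97% of all genes higher and 8.05% lower, with a median of 0.73. The exception was ECT2, a regulator of cytokinesis, at 0.10 ± 0.05 (adjusted p = 0.234). In BT474, 12 rose and 7 fell, against 1.85% and 1.76% of all genes, with a median of 0.06.

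In BT474R vehicle at 24 h members lay on both sides of T0. PTTG1 fell by 0.66 on the log2 scale, CDC20 by 0.65, PLK1 by 0.61, CCNB1 by 0.60 and KIF4A by 0.58, while SPC25 was 0.42 and CENPI 0.41 higher. Between 12 h and 24 h the largest rises in BT474R vehicle were 1.00 for CDC25C, 0.99 for KIF20A, 0.98 for KIF14, 0.95 for UBE2C and 0.94 for DLGAP5. In BT474 vehicle over the same interval the kinetochore genes SPC25, NDC80 and SKA3 rose by 0.48, 0.43 and 0.43, and PTTG1 and CCNB1 fell by 0.48 and 0.36. The BT474 count of 19 went to between 9 and 12 when any one of its 4 libraries was left out. The vehicle change from T0 to 24 h was higher in BT474R for 5 members and lower for none, against 3.09% and 3.37% of all genes, namely CENPI by 0.47, NUSAP1 by 0.42, KIF2C by 0.37, UBE2C by 0.31 and TOP2A by 0.24. That count was 3 without BT474 vehicle replicate 2 or BT474 T0 replicate 1, and 2 without BT474R vehicle replicate 2 or either BT474R T0 library.

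Against this background the study asked what each ligand does. The EGF and HRG comparisons at a given time share the same 2 vehicle libraries, so they are given side by side and not as separate evidence. At 1 h KIF23, a motor of the central spindle, was 0.19 ± 0.05 higher with EGF (adjusted p = 0.0344) and 0.24 ± 0.05 higher with HRG (adjusted p = 0.00349) in BT474, and was the only member called, against 2.19% of all genes called with EGF (1.65% higher, 0.533% lower) and 2.77% with HRG (2.16% higher, 0.604% lower). With EGF it was not called by DESeq2 or when any of the 4 libraries was left out. In BT474R edgeR called no member at 1 h with either ligand, against 0.416% of genes higher and 0.0412% lower with EGF and 0.169% higher and 0% lower with HRG. At an unadjusted p under 0.05, 17 members were lower with EGF and 15 with HRG, against 2.61% and 1.59% of all genes lower at the same threshold (5.65% and 4.36% in either direction), and DESeq2 called 0 with each ligand.

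In BT474 more members passed the test at 24 h than at 12 h with each ligand. With EGF, 18 of 45 members were higher than vehicle at 12 h and none lower, against 9.04% and 6.99% of all genes, with a median of 0.13. The cytokinesis scaffold ANLN was 0.38 ± 0.05 higher (adjusted p = 4.22e-08), the spindle midzone protein PRC1 0.34 and the checkpoint protein MAD2L1 0.33. The count was 10 without vehicle replicate 2 and 11 without EGF replicate 2. At 24 h, 44 of 45 were higher with EGF and none lower, against 9.71% and 6.65% of all genes. The median was 0.38, a fold of 1.30, and the members ranged from 0.19 to 0.55. CDC25C was the exception, at 0.29 (adjusted p = 0.0554). With HRG, 39 were higher at 12 h against 13.3% of all genes (12.5% lower), with a median of 0.29, and CCNB2, CDC25C, PTTG1, SPC25, INCENP and NUSAP1 were not called. At 24 h, 44 were higher with HRG against 12.5% of all genes (11.6% lower), with a median of 0.45, again without CDC25C, at 0.24 (adjusted p = 0.0914).

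PLK1 was at 36.9 and 36.3 CPM in the BT474 vehicle libraries at 24 h, at 57.4 and 49.7 CPM with EGF and at 57.5 and 56.9 CPM with HRG. Its log2 change was 0.55 ± 0.07 with EGF (adjusted p = 3.46e-08) and 0.63 ± 0.06 with HRG (adjusted p = 7.12e-10). BUB1, the checkpoint kinase at the kinetochore, was at 51.0 and 48.9 CPM in vehicle, 72.4 and 68.6 CPM with EGF and 78.1 and 71.9 CPM with HRG. TOP2A, which untangles sister chromatids, was at 314 and 293 CPM in vehicle, 379 and 365 CPM with EGF and 406 and 378 CPM with HRG. In each of these genes every ligand library lay above both vehicle libraries, as it did for all 45 members, against 24.2% of all genes for EGF and 28.1% for HRG. By role, the 24 h median with EGF was 0.46 for the mitotic kinases and 0.43 for the kinetochore and centromere genes, and 0.33 for the chromosomal passenger complex. HRG was above EGF at 12 h for 10 members and below for none, against 1.22% and 0.95% of all genes (2.17% in all), with KIF14 at 0.31 and ANLN at 0.30. That count was 2 without EGF replicate 1, 5 without EGF replicate 2 and 4 without either HRG library. At 24 h edgeR called 0 members between the ligands, against 0.768% of all genes (0.207% higher and 0.561% lower), while 6 were higher with HRG at an unadjusted p under 0.05, as were 4.53% of all genes (10.7% in either direction), and DESeq2 called 0.

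**Figure D3:**
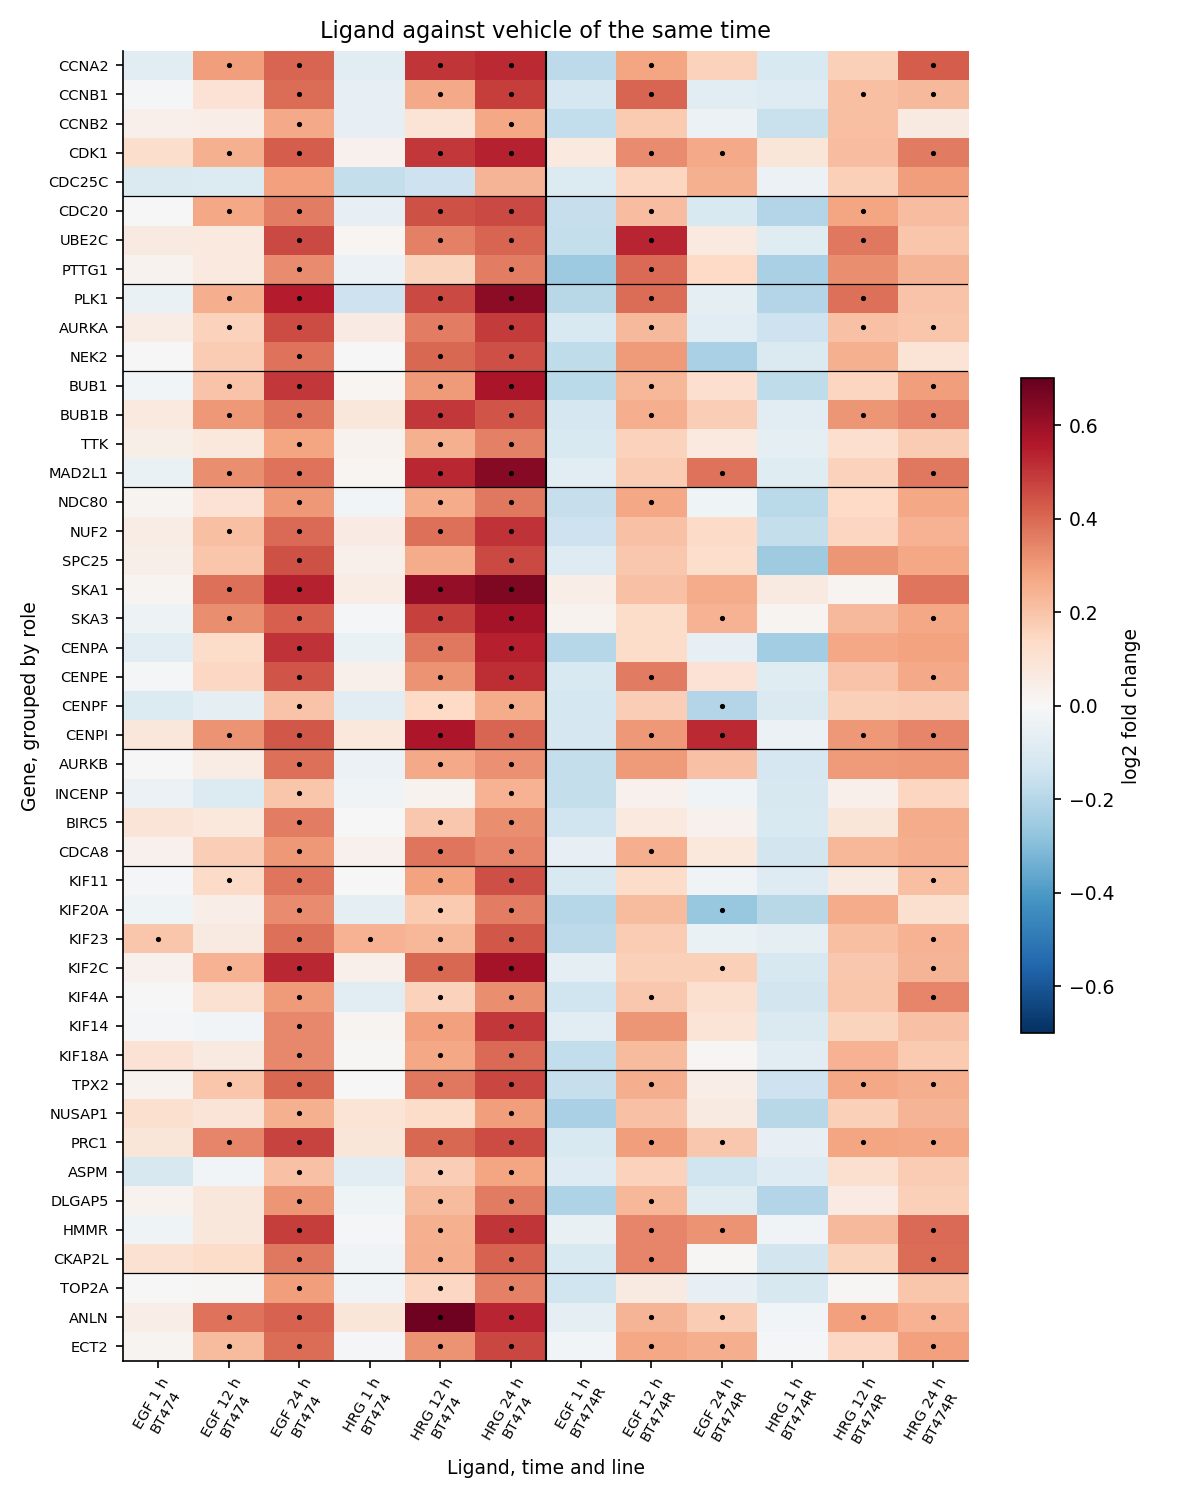
Log2 fold change of each gene (rows, grouped by role) with EGF or HRG against vehicle at the same time, by line and time (columns), with colour for size and direction. Dots mark genes that passed the threshold. The BT474 columns at 24 h hold 44 dots each, and the BT474R columns at 24 h hold 11 for EGF and 20 for HRG.

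In BT474R fewer members passed the test with EGF at 24 h than at 12 h. At 12 h, 22 members were higher with EGF and none lower, against 6.85% and 5.13% of all genes, with a median of 0.23. UBE2C, the ubiquitin-conjugating enzyme of the anaphase-promoting complex, was 0.54 ± 0.07 higher (adjusted p = 1.66e-05), CCNB1 0.41 ± 0.06 (adjusted p = 4.54e-05), PTTG1 0.40, PLK1 0.39 and CENPE 0.36. The count was 7 without vehicle replicate 1, 10 without EGF replicate 1 and 6 without EGF replicate 2. At 24 h, 9 members were higher and 2 lower, against 9.95% and 7.37% of all genes. The median was 0.07 and the members ranged from −0.26 to 0.52. The count was 3 without vehicle replicate 1, 5 without EGF replicate 1 and 3 without EGF replicate 2.

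The members higher with EGF at 24 h in BT474R were CENPI, MAD2L1, HMMR, CDK1, ECT2, SKA3, PRC1, ANLN and KIF2C. CENPI, a subunit of the inner kinetochore, was at 37.4 and 43.8 CPM in vehicle and at 56.3 and 60.4 CPM with EGF, a log2 change of 0.52 ± 0.08 (adjusted p = 4.8e-05). The 2 lower were KIF20A and CENPF. KIF20A was at 50.5 and 49.9 CPM in vehicle and 43.4 and 40.6 CPM with EGF, a change of −0.26 ± 0.07 (adjusted p = 0.0142). CENPF, a kinetochore protein of late G2, was at 324 and 332 CPM in vehicle and 284 and 287 CPM with EGF, a change of −0.20 ± 0.07 (adjusted p = 0.0431). The EGF libraries lay on one side of the vehicle libraries in each of these 3 genes. For PLK1 the libraries overlapped, at 47.9 and 55.5 CPM in vehicle and 51.8 and 47.3 CPM with EGF, with a change of −0.06 (adjusted p = 0.744). CCNB1 was at 79.0 and 81.5 CPM in vehicle and 76.1 and 76.8 CPM with EGF (−0.08, adjusted p = 0.435), and AURKA was at 262 and 265 CPM in vehicle and 257 and 243 CPM with EGF (−0.08, adjusted p = 0.346). Across the members, both EGF libraries lay above both vehicle libraries in 20 and below in 9, against 26.2% and 25.8% of all genes, and the libraries overlapped in 16.

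The remaining genes shown for every library, each the most abundant of its role, are given at 24 h in vehicle and EGF. CDC20, the activator of the anaphase-promoting complex, was at 54.4 and 52.1 CPM in BT474 vehicle and 71.4 and 64.8 CPM with EGF, and at 57.9 and 57.3 CPM in BT474R vehicle and 54.8 and 52.8 CPM with EGF. TPX2, which activates AURKA on the spindle, was at 204 and 182 CPM in BT474 vehicle and 265 and 245 CPM with EGF, and at 205 and 216 CPM in BT474R vehicle and 225 and 212 CPM with EGF. For both genes the EGF libraries lay above vehicle in BT474, and in BT474R they lay below for CDC20 and overlapped for TPX2. KIF11 was at 75.4 and 74.5 CPM in BT474 vehicle and 97.1 and 97.8 CPM with EGF, and at 86.0 and 94.3 CPM in BT474R vehicle and 89.5 and 88.3 CPM with EGF. INCENP, the scaffold of the chromosomal passenger complex, was at 110.4 and 110.5 CPM in BT474 vehicle and 129 and 124 CPM with EGF, and at 148 and 152 CPM in BT474R vehicle and 143 and 153 CPM with EGF. The BT474R libraries overlapped for both KIF11 and INCENP, and the BT474 libraries did not. Of all genes, 24.2% had both EGF libraries above both vehicle libraries in BT474 and 25.2% had them below, and 26.2% and 25.8% in BT474R. The difference between the lines in the EGF effect was −0.47 for CDC20, −0.41 for KIF11 and −0.36 for TPX2, all called, and −0.22 for INCENP (adjusted p = 0.105).

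**Figure D4:**
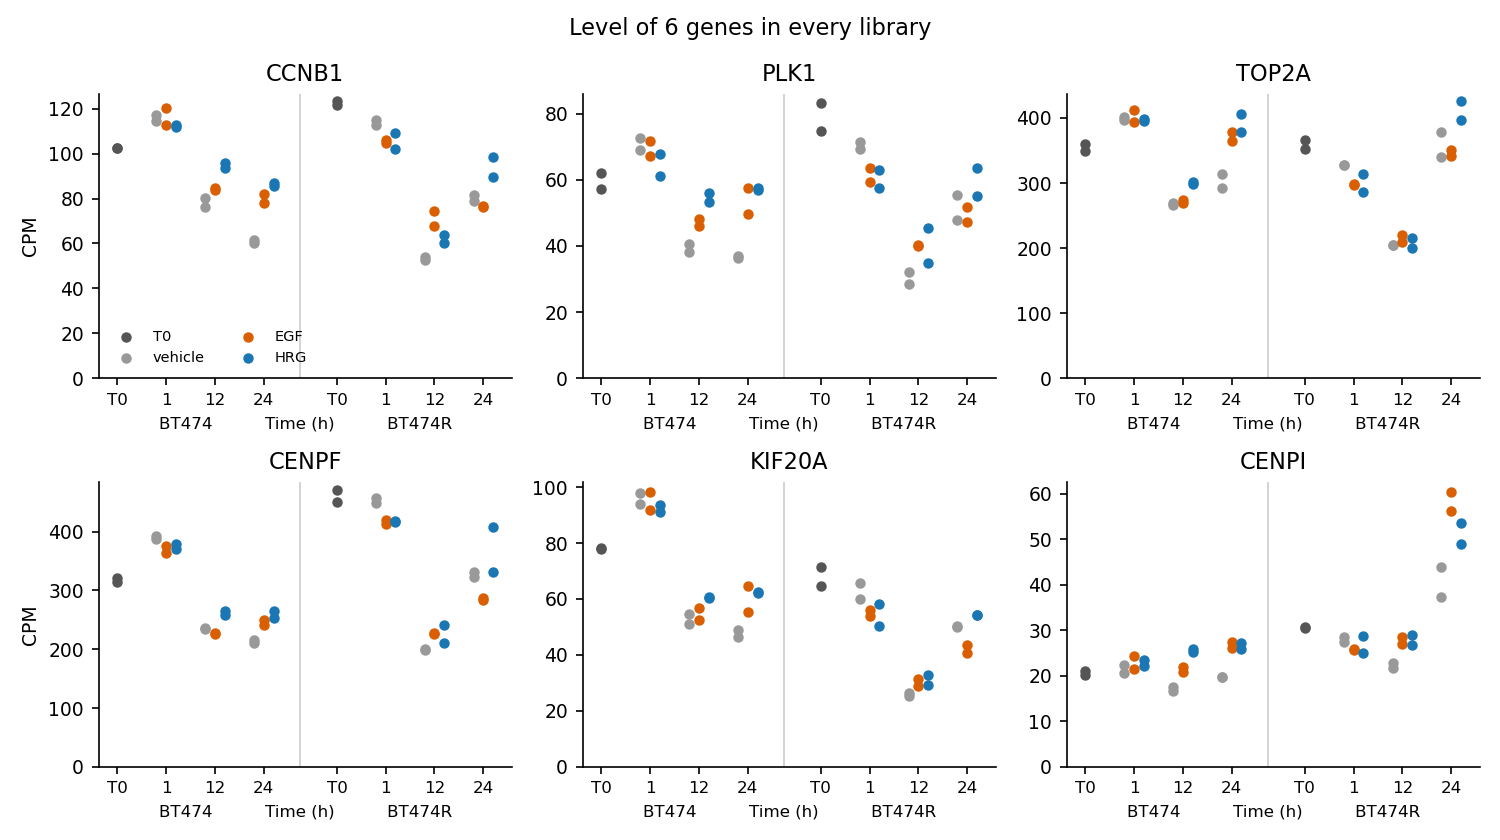
CPM of CCNB1, PLK1, TOP2A, CENPF, KIF20A and CENPI in every library, by line, time (horizontal axis, not to scale) and treatment (colour). Each point is a library. In BT474R at 24 h KIF20A is at 43.4 and 40.6 CPM with EGF and 50.5 and 49.9 CPM in vehicle, and CENPI is at 56.3 and 60.4 CPM with EGF and 37.4 and 43.8 CPM in vehicle.

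Marker genes also moved at 24 h. In BT474 the 8 luminal markers summed to 12310 to 13100 CPM in the 6 libraries at 24 h. In the other 14 they summed to 14010 to 15960 CPM. The BT474 sums for other cell types overlapped, at 100.8 to 123.8 CPM at 24 h and 92.5 to 123.1 CPM otherwise. The 10 markers of other cell types summed to 250.1 to 304 CPM in the 6 BT474R libraries at 24 h and to 184 to 216 CPM in the other 14, and the 8 luminal markers to 11110 to 13060 CPM and 14490 to 17880 CPM. Most of each sum for other cell types was COL1A1. VWF reached 23.2 CPM, CD68 4.96 CPM and the remaining markers at most 0.74 CPM. In BT474R vehicle COL1A1 was 0.51 ± 0.06 higher at 24 h than at T0 on the log2 scale (edgeR, adjusted p = 9.79e-06). In BT474 vehicle it was 0.24 ± 0.06 higher (edgeR, adjusted p = 0.00737). In BT474R at 24 h the sums for other cell types were 282 and 300.1 CPM in vehicle and 284 and 304 CPM with EGF. With EGF at 24 h in BT474R, 2 of the 6 tested markers of other cell types were higher and none lower, against 9.95% and 7.37% of all genes. CD68 was higher by 1.36 ± 0.22 on the log2 scale (adjusted p = 9.65e-05). The other was PECAM1, at 0.218 CPM or lower and with 0 counts in 15 libraries, so its change is uncertain. COL1A1 was not called (−0.01, adjusted p = 0.912). Of the 8 luminal markers 3 were higher and 3 lower, among them GATA3 by −2.00 ± 0.15 (adjusted p = 2.53e-09). GATA3 was also lower with EGF at 24 h in BT474, by −0.49 ± 0.04 (edgeR, adjusted p = 4.39e-13). The part of these markers in the results was not tested.

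The levels behind the 24 h ratio in BT474R moved in both arms. From 12 h to 24 h, 42 members rose with EGF and none fell, against 11% and 10.4% of all genes, with a median of 0.51, beside the median of 0.73 in vehicle given above. CCNB1 went from 67.9 and 74.3 CPM to 76.1 and 76.8 CPM with EGF, and from 52.6 and 54.0 CPM to 79.0 and 81.5 CPM in vehicle. With HRG all 45 rose from 12 h to 24 h, against 8.52% of all genes (6.79% lower), with a median of 0.75. In BT474, 31 members rose with EGF and none fell over this interval, against 3.33% and 3.44% of all genes, and the count was 19 without the 12 h library of EGF replicate 1. With HRG in BT474, 21 rose and 3 fell, against 5.02% and 6.81%. These comparisons of times within a treatment were added after the data had been seen. The test of whether the EGF effect differed between 24 h and 12 h called CCNB1 alone in BT474R, lower by −0.48 ± 0.08 (adjusted p = 0.0106), against 0.0782% of all genes lower and 0.107% higher. A further 15 members were lower at an unadjusted p under 0.05, as were 3.69% of all genes (8.07% in either direction), and the count was 0 without vehicle replicate 1 at 12 h, EGF replicate 2 at 12 h or either EGF library at 24 h, and 2 without vehicle replicate 1 at 24 h. In BT474 the same test called 7 members as higher at 24 h, against 0.29% of genes (0.227% lower), with HMMR at 0.40 and UBE2C at 0.39, and the count was 1 without EGF replicate 2 at 12 h, 12 without EGF replicate 2 at 24 h, and 2 to 5 without any vehicle library or EGF replicate 1 at 12 h. For HRG in BT474 it called INCENP (0.22) and TOP2A (0.20), against 2.5% of all genes (0.764% higher and 1.73% lower), and in BT474R edgeR called 0 members for HRG, against 0% higher and 0.0288% lower, with 2 higher at an unadjusted p under 0.05, as were 3.45% of all genes (6.09% in either direction), and 0 by DESeq2. The BT474 count for HRG was 3 without HRG replicate 2 at 24 h and 0 or 1 without any other of the 8 libraries.

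With HRG in BT474R 10 members were higher at 12 h and 20 at 24 h, and none lower, against 2.38% and 1.89% of all genes higher and 1.73% and 0.889% lower, with medians of 0.21 and 0.25. At 24 h the S and G2 cyclin CCNA2 was 0.43 ± 0.08 higher (adjusted p = 0.00384), HMMR and CKAP2L, both spindle proteins, 0.39 each, and MAD2L1 and CDK1 0.37 each. The 12 h count was 6 without vehicle replicate 1 and 2 without HRG replicate 2. The 24 h count was 0 without vehicle replicate 1 and 9 without HRG replicate 2. Set against EGF directly, HRG was higher for 16 members at 24 h and lower for none, against 1.86% and 3.32% of all genes, with CENPF, KIF20A and CKAP2L each at 0.38, CENPA at 0.34 and CDC20 at 0.32. That count was 8 without EGF replicate 1 and 4 without EGF replicate 2. At 12 h edgeR called 0 members between the ligands in BT474R, against 0.276% of all genes higher and 1.14% lower, while 5 were lower with HRG at an unadjusted p under 0.05, as were 5.43% of all genes (9.05% in either direction), and DESeq2 called 0.

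The test of the difference between the lines asks whether a ligand effect was larger in one of them. At 24 h the EGF effect was smaller in BT474R for 20 members and larger for none, against 2.09% of all genes smaller and 1.92% larger. The median difference was −0.33 and 44 of 45 members were negative. AURKA differed by −0.54 ± 0.08 (adjusted p = 5.43e-06), KIF20A by −0.60 ± 0.10 (adjusted p = 0.000118), PLK1 by −0.62 ± 0.13 (adjusted p = 0.00167), NEK2 by −0.61 ± 0.13 and CENPA by −0.57 ± 0.14. By role, the difference was called for 3 of 3 mitotic kinases, 4 of 7 kinesins, 4 of 7 spindle microtubule proteins, 2 of 3 anaphase genes and 3 of 9 kinetochore and centromere genes. It was called for 1 of 5 genes of cyclins and CDK1 control and 1 of 4 of the chromosomal passenger complex. Of chromosome topology and cytokinesis genes it was called for 1 of 3. The count was 12 without BT474 EGF replicate 1. At 12 h UBE2C and CCNB1 responded more to EGF in BT474R, UBE2C by 0.45 ± 0.09 (adjusted p = 0.00177) and CCNB1 by 0.29 ± 0.07 (adjusted p = 0.0249), and none responded less, against 0.929% and 1.03% of all genes, and the count was 1 without any of 6 of the 8 libraries. At 1 h only KIF23 differed, by −0.39 (adjusted p = 0.0352), against 0.134% of all genes smaller and 0.00406% larger, and it was not called without any of 7 of the 8 libraries.

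**Figure D5:**
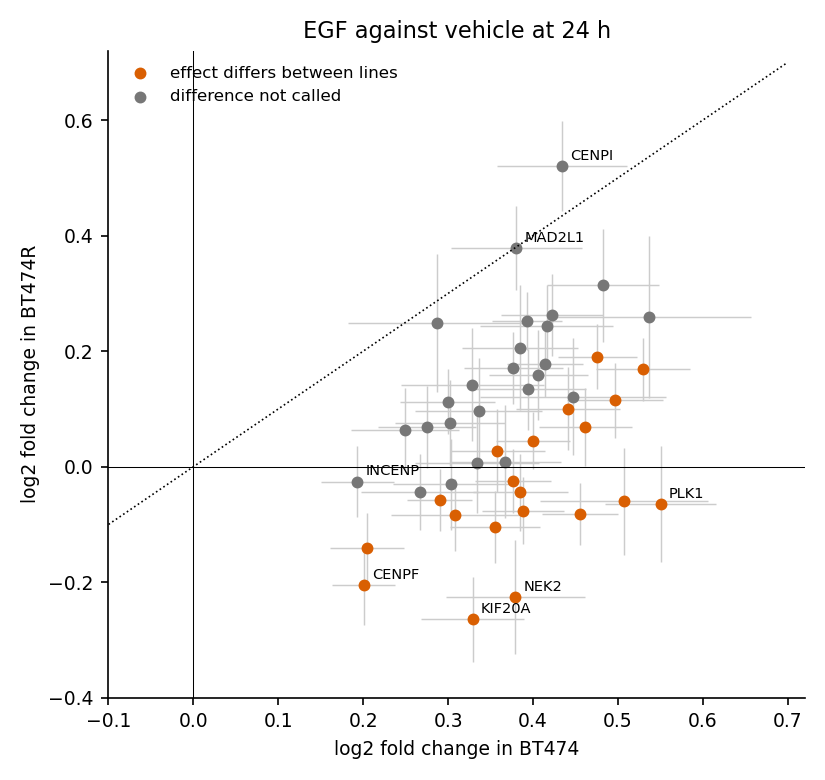
Log2 fold change with EGF against vehicle at 24 h in BT474 (horizontal axis) and BT474R (vertical axis). Each point is a gene, bars are standard errors, the dotted line marks equal change and orange marks the 20 genes whose difference between lines passed the threshold. Of the 45 genes, 44 lie below the line of equal change.

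For HRG the difference between lines was called for 9 members at 24 h, all smaller in BT474R, against 2.09% of all genes smaller and 1.24% larger. PLK1 differed by −0.46, KIF2C, which removes faulty microtubule attachments, by −0.38, AURKA and ANLN by −0.33 each and BUB1 by −0.31. The count was 1 without BT474 vehicle replicate 2 or BT474 HRG replicate 1, 2 without BT474 HRG replicate 2 and 4 without BT474R vehicle replicate 2. At 12 h ANLN, MAD2L1, CCNA2 and KIF11 were called as smaller in BT474R, by −0.40, −0.38, −0.35 and −0.23, against 2.91% of all genes smaller and 1.16% larger. That count was 1 without either BT474 vehicle library, either BT474 HRG library, BT474R vehicle replicate 2 or BT474R HRG replicate 1. At 1 h edgeR called 0 members, against 0.495% of all genes smaller and 0.0487% larger, with 9 smaller at an unadjusted p under 0.05, as were 3.51% of all genes (6.55% in either direction), and 0 by DESeq2.

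Set against T0, the ligand-treated cells at 24 h held members above and below their starting level, and these comparisons use the same ligand libraries as those above. In BT474 with EGF 11 members were above T0 and 12 below, against 12% and 11.7% of all genes, and with HRG 17 were above and 10 below, against 13.8% and 15%. In BT474R with EGF 8 were above and 21 below, against 14.3% and 12.4%, and with HRG 14 were above and 11 below, against 8.98% and 6.34%. That last count of 25 was 15 without T0 replicate 2. In BT474R with EGF, CENPI was 0.93 ± 0.08 above T0 and the kinetochore genes SKA1 and SPC25 were 0.70 and 0.54 above, with the doubt on their second rows given above. NEK2 fell by 0.80, CDC20 by 0.75, KIF20A and CENPF by 0.69 each and CCNB1 by 0.68. All 3 mitotic kinases were below T0, with a median of −0.67, while of the 9 kinetochore and centromere genes 4 were above and 3 below.

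Other genes of the cycle were counted from lists outside the 45. Of 30 other kinetochore and checkpoint subunits, 4 were below T0 in BT474 vehicle at 12 h and none above, against 3.26% and 3.15% of all genes. In BT474R 6 were below and none above, against 0.774% and 0.354%. Their medians were −0.11 and −0.08, beside −0.44 and −0.77 for the 9 kinetochore and centromere members. Of 39 other G2/M genes, 32 in BT474 and 34 in BT474R were below and none above. With EGF at 24 h in BT474, 36 of these 39 were higher and none lower, against 9.71% and 6.65% of all genes. In BT474R 11 were higher and 1 lower, against 9.95% and 7.37% of all genes. The EGF effect was smaller in BT474R for 10 and larger for none, against 2.09% and 1.92% of all genes. Of 26 DNA replication and S phase genes, 24 were higher with EGF at 24 h in BT474 and 21 in BT474R, against 9.71% and 9.95% of all genes. The medians were 0.28 and 0.37, and the median difference between the lines was 0.07. At 12 h the EGF effect on these genes was smaller in BT474R for 10 of 26 and larger for none, with a median difference of −0.29, against 1.03% and 0.929% of all genes. For HRG at 12 h it was smaller for 12 and larger for none, with a median difference of −0.31, against 2.91% and 1.16% of all genes. In vehicle at 12 h, where the mitotic genes fell, 7 of these S phase genes were above T0 and 1 below in BT474, against 3.15% and 3.26% of all genes. In BT474R 9 were above and none below, against 0.354% and 0.774% of all genes. In vehicle at 24 h their median change from T0 was 0.52 in BT474 and 0.29 in BT474R. For all genes it was −0.01 and 0.02. The median difference between the lines in that vehicle change was −0.23 for the S phase genes. The 24 h EGF effects above are taken against these vehicle levels. FOXM1, the forkhead activator of G2/M genes, was 0.33 ± 0.05 higher with EGF at 24 h in BT474 (adjusted p = 1.45e-05) and −0.09 in BT474R (adjusted p = 0.415), a difference between lines of −0.42 ± 0.09 (adjusted p = 0.00397). MYBL2 was 0.54 higher in BT474 (adjusted p = 1.05e-10) and 0.37 higher in BT474R (adjusted p = 0.00146), with a difference of −0.17 (adjusted p = 0.424). Of 16 subunits and partners of the anaphase-promoting complex, 2 were higher with EGF at 24 h in BT474, against 9.71% of all genes. In BT474R 1 was higher and 1 lower, against 9.95% and 7.37% of all genes. These counts are near the shares of all genes. Of the members with a promoter entry, 19 had both motifs and 21 lacked at least 1 of them, KIF20A with CCAAT alone being among the 21. The median EGF effects at 24 h of these 19 and 21 genes were 0.37 and 0.39 in BT474 and −0.03 and 0.14 in BT474R, given as a description.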

How the data were processed

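RNA was sequenced from 40 libraries, 2 in each of 20 groups of cell line, treatment and time (mRNA libraries, paired reads of 101 bases). The authors trimmed reads with Trim Galore 0.6.6, aligned them to GRCh38.p13 with Rsubread and counted them per gene with its featureCounts function. The deposited values are whole-number read counts per gene, not normalised. The annotation release, strand setting and treatment of multimapping reads are not given in the sources used here, so overlapping genes and near-identical copies may share reads.

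The 45 genes, their roles and the other gene lists were chosen with earlier results of these data known. Groups came from the sample labels. Genes with at least 1 count in 50% of libraries were kept, which left 25146 genes in BT474, 24287 in BT474R and 24641 in the fit of both lines. TMM scaling was applied and the genes were tested with the quasi-likelihood F test of edgeR 4.0.16 in R 4.3.3, 1 fit per line and 1 fit of all 40 libraries for comparisons of lines. P-values were adjusted over all genes by the Benjamini-Hochberg method with a threshold of 0.05. CPM are read counts scaled to the TMM-adjusted library size, and mean log2 CPM used a prior count of 2. Fold changes are log2 with standard errors. The scripts were tested on simulated data with known changes. DESeq2 1.42.0, other filters and scalings, and leaving out each library were tried as alternatives. By rule, up to 5 called members in each direction with the largest change were named in each comparison. Values in every library were given for the most abundant member of each of 9 roles and for the members with the largest and smallest EGF change at 24 h in each line. FOXM1 and MYBL2 were named in any case. Other members, such as the exceptions to a count, were chosen after their values were seen. Depth is given with the results.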

Additional observations from a re-analysis of the deposited data

Results flagged for a closer look

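Differences between the lines that passed the edgeR test are listed here with their values, as BT474R minus BT474 on the log2 scale. The EGF effect differed for 1 member at 1 h (KIF23, −0.395) and for 2 at 12 h (UBE2C 0.45, CCNB1 0.29). It differed for 20 at 24 h, led by PLK1 −0.62, NEK2 −0.61, KIF20A −0.60, CENPA −0.57 and AURKA −0.54. The HRG effect differed for 4 members at 12 h (ANLN −0.40, MAD2L1 −0.38, CCNA2 −0.35, KIF11 −0.23). It differed for 9 at 24 h, led by PLK1 −0.46, KIF2C −0.38, AURKA −0.33, ANLN −0.33 and BUB1 −0.31. The vehicle change from T0 differed for 32 members at 12 h, led by PTTG1 −1.10, ASPM −1.02, NEK2 −0.96, KIF20A −0.87 and CCNB1 −0.84. It differed for 5 at 24 h, with CENPI 0.47, NUSAP1 0.42, KIF2C 0.37, UBE2C 0.31 and TOP2A 0.24. With 2 libraries in each group, no sample was tested for standing apart from its group.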

How the results depend on the processing

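With 2 libraries in a group, small counts of called members moved most. Of 624 alternative counts of called members 493 stayed within 1.5 times the count reported and 131 did not. DESeq2 called 44 members for EGF at 24 h in BT474, 11 in BT474R and 20 for the difference between them. Pooled over times, the replicate numbers paired the libraries little (median correlation of deviations at the same time 0.0274 in BT474 and 0.0166 in BT474R). The correlation was over 0.1 in 3 and 2 of 9 pairs, all at 24 h. There it ran from 0.135 to 0.265 in BT474, and in BT474R it was 0.384 for vehicle with HRG and 0.236 for HRG with EGF. Pairs at different times were over 0.1 in 3 of 36 in BT474, with a highest value of 0.129. In BT474R they were over 0.1 in 8 of 36, and ran from −0.217 to 0.307. Libraries of a replicate number may share a deviation at 24 h, but in BT474R correlations up to 0.307 also occurred between times. The cause of the changes below was not tested.

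DESeq2 called 0 members for EGF at 1 h in BT474 and 5 for the EGF effect at 24 h minus 12 h in BT474R. A fit of only the libraries compared called 0 for EGF at 1 h in BT474, 20 for HRG against EGF at 12 h in BT474, and 1 and 0 for the EGF and HRG effects at 24 h minus 12 h in BT474. In BT474R it called 4 for EGF at 1 h, 7 for EGF at 24 h, 3 for HRG at 12 h, 0 for HRG at 24 h, 17 for vehicle at 1 h against T0, 0 for HRG at 24 h against T0, 0 for HRG against EGF at 24 h, 6 for EGF at 24 h minus 12 h and 0 for HRG at 24 h against 12 h. Between the lines it called 2, 4 and 10 for EGF over the 3 times in order and 0 for HRG at 24 h. One fit of both lines called 3 for HRG against EGF at 12 h in BT474, 0 and 0 for EGF and HRG at 24 h minus 12 h in BT474, and in BT474R 21 for HRG at 12 h, 5 for vehicle at 1 h and 6 for EGF at 24 h minus 12 h. With no filter, 1 was called for HRG against EGF at 24 h and 11 for EGF at 24 h minus 12 h in BT474, 17 for HRG at 12 h and 8 for EGF at 24 h minus 12 h in BT474R, and 2 and 4 between the lines for HRG at 12 h and 24 h. A stricter filter (filterByExpr) gave 2 for EGF at 24 h minus 12 h in BT474R and 1 between the lines for HRG at 1 h. DESeq2 size factors within edgeR gave 2 for EGF at 24 h minus 12 h in BT474R, and 0 and 2 between the lines for EGF at 1 h and HRG at 12 h. A replicate block gave 2 for EGF at 24 h minus 12 h in BT474R and 1 between the lines for HRG at 1 h. A replicate block within each time point gave 1 for HRG against EGF at 24 h, 11 and 4 for EGF and HRG at 24 h minus 12 h in BT474, and 3 for EGF at 24 h minus 12 h in BT474R. Summing the second rows of SPC25 and SKA1, an alternative chosen after the data were seen, gave between the lines 0 for EGF at 1 h, 2 for HRG at 12 h and 5 for HRG at 24 h.

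Leaving out 1 library at a time gave these ranges of called members. In BT474 they were 0 to 0, 10 to 16 and 36 to 44 for EGF by time, 0 to 1, 32 to 37 and 41 to 44 for HRG, and 8 to 14, 35 to 38 and 29 to 34 for vehicle against T0. They were 18 to 23 and 19 to 24 for EGF and HRG at 24 h against T0, 2 to 5 and 0 to 2 for HRG against EGF at 12 h and 24 h, 1 to 12 and 0 to 3 for EGF and HRG at 24 h minus 12 h, and 9 to 12, 19 to 32 and 17 to 22 for 24 h against 12 h in vehicle, EGF and HRG. In BT474R they were 0 to 0, 6 to 17 and 3 to 10 for EGF, 0 to 0, 2 to 9 and 0 to 23 for HRG, and 0 to 0, 40 to 42 and 20 to 24 for vehicle against T0. They were 22 to 26 and 15 to 25 for EGF and HRG at 24 h against T0, 0 to 0 and 4 to 16 for HRG against EGF, 0 to 2 and 0 to 0 for EGF and HRG at 24 h minus 12 h, and 43 to 44, 40 to 41 and 45 to 45 for 24 h against 12 h in vehicle, EGF and HRG. Between the lines they were 0 to 1, 1 to 2 and 12 to 21 for EGF, 0 to 1, 1 to 4 and 1 to 9 for HRG, 25 to 28 and 2 to 6 for the vehicle change to 12 h and 24 h, and 24 to 29 at T0.

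Over all alternatives, values of single named genes kept their direction and their side of the threshold in 4196 cases, were no longer called in 405, became called in 36 and changed sign in 18. The 18 values with the changed sign were close to 0 and called under neither setting. With 1 library left out some of these genes ranged further, FOXM1 up to 0.26 and MYBL2 up to 0.27 in BT474R. With 1 library left out in BT474, KIF20A (EGF, 12 h) ran from −0.0088 to 0.11, with −0.0062 between, INCENP (HRG, 12 h) from −0.019 to 0.073 and FOXM1 (vehicle, 24 h against T0) from −0.061 to 0.013. In BT474R, INCENP ran from −0.0070 to 0.10 (EGF, 12 h), −0.082 to 0.028 (EGF, 24 h) and −0.011 to 0.12 (HRG, 12 h). With EGF at 24 h KIF11 ran from −0.075 to 0.035, PLK1 from −0.15 to 0.036 and TOP2A from −0.12 to 0.014. TOP2A (HRG, 12 h) ran from −0.023 to 0.068, FOXM1 (HRG, 24 h) from −0.0097 to 0.26 and MYBL2 (vehicle, 24 h against T0) from −0.047 to 0.27. TOP2A in vehicle at 24 h was −0.0031 with DESeq2, −0.0030 with its size factors and −0.0037 in 1 fit of both lines, and ran from −0.065 to 0.066, with −0.00023 between, with 1 library left out.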
